A study of Sus scrofa domesticus with 4 samples.

Results

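The genes described here encode the class I molecule of the swine leukocyte antigen (SLA) complex, its light chain and the machinery that cuts and loads its peptides. They were chosen by name as 10 gene symbols, SLA-1, SLA-2, SLA-3, SLA-5, SLA-6, B2M, TAP1, TAP2, PSMB8 and PSMB9, and found on the array through the RefSeq accessions of the probes. Of these 10 genes 8 had at least 1 probe, out of 3029 genes named on the array, and they held 21 of its 43603 probes. SLA-1 and SLA-2 were matched to no probe and are not analysed here.

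A class I molecule is a heavy chain, encoded by an SLA class I gene, bound to the light chain beta-2-microglobulin. It shows peptides from inside the cell to CD8+ T cells and to receptors of natural killer cells. The immunoproteasome subunits PSMB8 and PSMB9 help to cut these peptides, the transporter TAP1/TAP2 carries them into the endoplasmic reticulum, and chaperones there help to load them. Interferon gamma is a classic inducer of the whole set, and in the pig the conceptus secretes interferons at about the time it attaches to the uterus.

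The tested tissue was endometrium of gilts (Large White x Polish Landrace) aged 7 to 8 months and on days 15 to 16 of gestation, cut into slices and cultured. After 2 h of preincubation the slices were kept for 24 h with orexin A (OXA), a neuropeptide that acts in feeding and arousal, at 10 nM per the sample labels and 10 µM per the series' design text, or without any treatment as controls. Tissue of 4 gilts was used, with duplicate cultures, and each of 4 Agilent 2-colour arrays set 1 OXA RNA against 1 control RNA. By the labels of the single samples, OXA RNA carried the dye Cy5 on arrays 1 and 3, whereas Cy3 marked it on arrays 2 and 4. In contrast, the text on labelling, which is the same for every sample, gives Cy5 for OXA throughout. The labels do not tie the 2 RNAs of an array to a gilt, so p-values measure the spread between these arrays.

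Arrays 2 to 4 shared a slide, and array 1 was on another slide scanned 71 days later. Between 62.3% and 74.5% of spots were well above background in Cy5 and between 31.7% and 56.7% in Cy3, lowest on array 1 in both, and no spot was saturated. Over the 26927 probes tested, log2 ratios of OXA over control correlated at 0.42 between arrays 1 and 2 and at -0.29 between arrays 3 and 4, with the other pairs between -0.14 and 0.11. The epithelial genes KRT8 and CDH1 and the stromal genes DCN and LUM were above background in all 8 readings (4 arrays in 2 dyes). Such a slice holds many cell types, and fewer cells of a type and less RNA per cell cannot be told apart.

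B2M, the light chain shared by all class I molecules, followed the dye on every array. Its normalized log2 level in OXA RNA was 17.76, 17.13, 17.76 and 17.03 on arrays 1 to 4, against 17.42, 18.06, 17.62 and 17.92 in control RNA. The RNA in Cy5 had the higher level on each array, whichever treatment it came from. As log2 OXA over control this was 0.34 on array 1 and 0.14 on array 3, where OXA was in Cy5, and -0.92 on array 2 and -0.88 on array 4, where it was in Cy3. The mean was -0.33 ± 0.67 (SD, n = 4 arrays), a fold of 0.795. The SD is larger than the mean, and the arrays of the 2 dye orientations do not overlap. In limma, fitted with a coefficient for OXA and one for the dye, the OXA coefficient was -0.33 (SE 0.06) and the dye coefficient, Cy5 over Cy3, was 0.57 (SE 0.06). With no dye coefficient in the fit the SE of the OXA coefficient was 0.27. Neither coefficient passed over all probes (adjusted p = 0.763 for OXA and adjusted p = 0.932 for the dye). An OXA coefficient as low as that of B2M or lower was found in 1.78% of all probes tested, and a dye coefficient as high or higher in 0.564%. The other B2M probe gave -0.24 and 0.47 for the OXA and dye coefficients, with the same order of arrays. The reference table lists 2 genes under the symbol B2M on chromosome 1, and whether these probes read both was not tested.

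The brightest probe of SLA-3, a classical class I heavy chain, had ratios close to those of the light chain. By this probe OXA RNA had log2 levels of 16.69, 16.89, 17.27 and 16.38 on arrays 1 to 4, against 16.39, 17.84, 17.19 and 17.12 in control RNA. The ratio of OXA over control was 0.30 and 0.08 with OXA in Cy5 (arrays 1 and 3), against -0.95 and -0.74 with OXA in Cy3 (arrays 2 and 4). The OXA coefficient was -0.33 (SE 0.08; limma adjusted p = 0.763) and the dye coefficient 0.52 (SE 0.08; limma adjusted p = 0.932). All 7 SLA-3 probes had an OXA coefficient below 0, between -0.33 and -0.06, and a dye coefficient above 0, between 0.08 and 0.52. The median OXA coefficient was -0.14 over these 7 probes, against -0.29 over the 2 B2M probes. The 7 probes did not all show the split. With OXA in Cy3 all 7 were below 0 on both arrays, but with OXA in Cy5 only 2 of 7 were above 0 on both. The probe with a brightness of 15.6 on the log2 scale and an OXA coefficient of -0.22 was below 0 on all arrays, at -0.21, -0.50, -0.05 and -0.13. The heavy chain genes are close in sequence, probe sequences were not used here, and which heavy chains each SLA-3 probe reads was not tested.

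SLA-5, another class I heavy chain gene of the same gene cluster, was lower in OXA RNA on 3 of 4 arrays. Its brightest probe had log2 levels of 15.20, 16.07, 16.23 and 15.63 in OXA RNA, against 15.07, 16.76, 16.32 and 16.04 in control RNA. The ratios were 0.13, -0.69, -0.08 and -0.41, so array 1 alone was above 0. The OXA coefficient was -0.26 (SE 0.08), the other probe gave -0.18, and limma's adjusted p was 0.763 for both. These 2 probes had a log2 brightness of 15.9 and 11.6, and which heavy chains each reads was not tested. SLA-6, a class Ib heavy chain gene of more restricted function, had log2 levels of 10.95, 11.55, 11.99 and 11.14 in OXA RNA, against 11.09, 12.21, 11.59 and 11.19 in control RNA. Its ratios of -0.14, -0.65, 0.39 and -0.05 had array 3 alone above 0, and the OXA coefficient of -0.11 (SE 0.15) was smaller than its error.

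**Figure D1:**
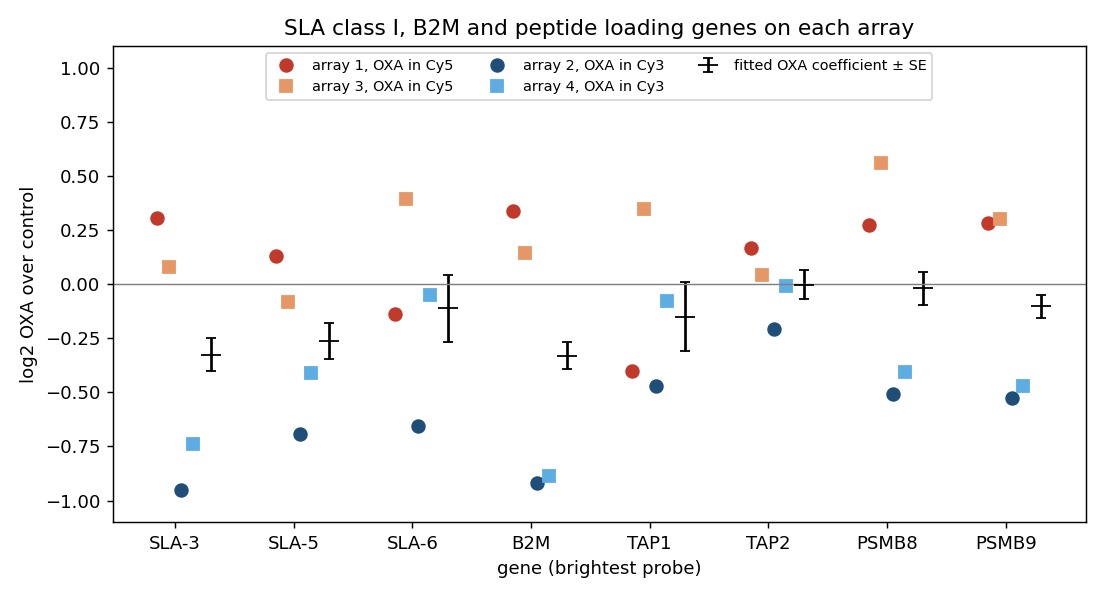
Log2 OXA over control (y axis) of the brightest probe of each of the 8 measured genes (x axis). Red and orange points are arrays 1 and 3 (OXA in Cy5), dark and light blue points arrays 2 and 4 (OXA in Cy3), and the black bar is the fitted OXA coefficient with its SE. B2M and SLA-3 have both blue points at or below -0.74 and both red or orange points above 0.

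Of the transporter genes, TAP2 lay nearest to 0. TAP1, one half-transporter of the peptide pump, had log2 levels of 11.02, 11.62, 11.73 and 11.35 in OXA RNA, against 11.42, 12.09, 11.39 and 11.43 in control RNA. Its ratios were -0.40, -0.47, 0.35 and -0.08, so OXA was lower on 3 of 4 arrays, and the OXA coefficient was -0.15 (SE 0.16; limma adjusted p = 0.763). Its dimmer probe gave -0.01. TAP2, the partner chain of the pump, had log2 levels of 10.94, 10.80, 10.80 and 10.81 in OXA RNA, against 10.77, 11.01, 10.76 and 10.82 in control RNA. The ratios of 0.16, -0.21, 0.04 and -0.01 gave an OXA coefficient of -0.0028 (SE 0.07), with a 95% interval of -0.19 to 0.19. In Agilent's own log ratio TAP1 was 0.09, -0.53, 0.74 and -0.23, and TAP2 was -0.06, -0.41, 0.15 and -0.01.

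By their brightest probes, both immunoproteasome genes lay above 0 on the arrays with OXA in Cy5 and below 0 on those with OXA in Cy3. PSMB8, a catalytic subunit also called LMP7, had log2 levels of 12.89, 12.64, 12.90 and 12.20 in OXA RNA, against 12.61, 13.15, 12.34 and 12.61 in control RNA. With OXA in Cy5 its ratios were 0.27 and 0.56 (arrays 1 and 3), and with OXA in Cy3 they were -0.51 and -0.41 (arrays 2 and 4). Averaged over both orientations this left an OXA coefficient of -0.02 (SE 0.08; limma adjusted p = 0.916) beside a dye coefficient of 0.44 (SE 0.08; limma adjusted p = 0.932). Its other 2 probes gave OXA coefficients of -0.13 and -0.08 and dye coefficients of 0.30 and 0.25. On array 1 they were at -0.05 and 0.003, so the first of them did not split by dye.

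PSMB9, a catalytic subunit also called LMP2, had log2 levels of 15.10, 15.27, 15.40 and 14.55 in OXA RNA, against 14.82, 15.79, 15.10 and 15.02 in control RNA. Its ratios were 0.28 and 0.30 with OXA in Cy5, against -0.53 and -0.47 with OXA in Cy3. The OXA coefficient was -0.10 (SE 0.05; limma adjusted p = 0.763) and the dye coefficient 0.40 (SE 0.05; limma adjusted p = 0.932). The second probe of PSMB9 gave -0.15 and 0.46. TAP2, PSMB8, TAP1 and PSMB9 are neighbours in that order on chromosome 7 of assembly Sscrofa11.1, with dye coefficients of 0.11, 0.44, 0.12 and 0.40 in the same order.

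**Figure D2:**
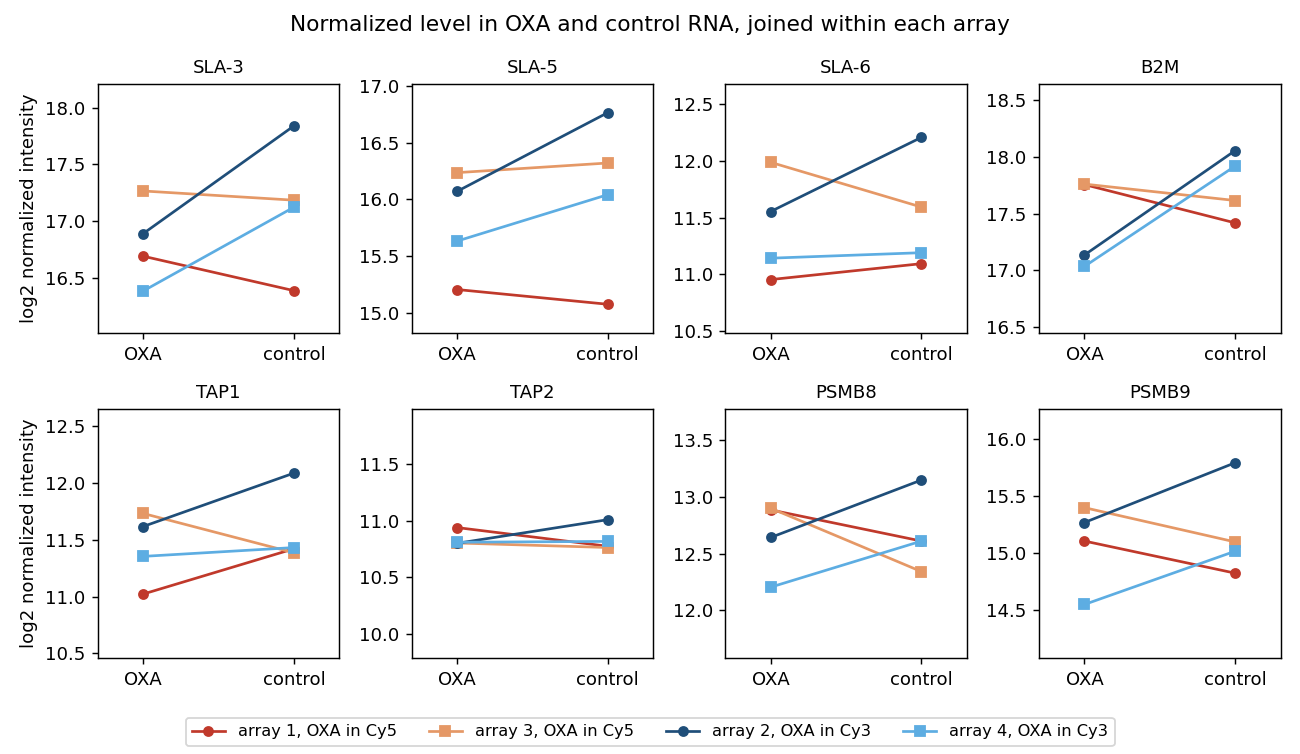
Normalized log2 intensity (y axis; each panel spans the same range) in OXA RNA and control RNA (x axis) for the brightest probe of each gene, with the 2 RNAs of an array joined by a line. For B2M, SLA-3, PSMB8 and PSMB9 the lines of arrays 1 and 3 fall to the right and those of arrays 2 and 4 climb, so the RNA in Cy5 is the higher one on each array.

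As a group the 8 genes lay below 0 on the OXA coefficient and above 0 on the dye coefficient. All 8 had an OXA coefficient below 0, where 43% of all probes tested did, and their median was -0.13, against 0.02 over all probes. No gene passed an adjusted p of 0.05 on OXA in limma, and neither did any other probe (0%). At an unadjusted p under 0.05 there were 3 of 8 genes lower with OXA (B2M, SLA-3 and SLA-5) and none higher, where 0.847% of all probes were lower and 1.01% higher. Over single probes 4 of 21 were lower at that level. Both B2M probes were among them, but only 1 of 7 SLA-3 probes was. The dimmer SLA-5 probe was not (limma unadjusted p = 0.128). The count of 3 genes fell to 2 without array 1, 0 without array 2, 1 without array 3 (where 13% of all probes were lower) and 1 without array 4, and to 0 in Agilent's log ratio, in the authors' value table, with no background correction, with median centring and with an intensity trend and robust fitting. With no dye coefficient 0 of the 8 genes passed it, where 0.587% of all probes did on the lower side. That share was 0.834% without array 1, 0.446% without array 2 and 1.51% without array 4. In the processing runs with 0 genes it lay between 0.0149% (median centring) and 2.25% (no background correction). The gene count was 2 with array weights (0.557%) and with all 8 readings above background (1.24%). It was 3 with normexp at offset 0 (0.821%) and 4 with no filter on dim probes (0.562%).

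That the member genes split by dye was known before the fit, so the dye counts here describe them and are no independent test. All 8 genes had a dye coefficient above 0, where 61.6% of all probes did, and their median was 0.34, against 0.03 over all probes. At an adjusted p of 0.05 none passed (0% of all probes). At an unadjusted p under 0.05, 5 of 8 genes were higher in Cy5 (B2M, SLA-3, SLA-5, PSMB8 and PSMB9), where 3.24% of all probes were. Cy5 lay above Cy3 on all arrays for 5 of 8 genes, where it did for 10.3% of all probes and for 6.56% of the 869 probes with a brightness of at least 15 on the log2 scale. Among the 10 member probes of that brightness it did for 5, and all 10 had an OXA coefficient below 0, where 49.9% of all probes of that brightness did. These 10 probes read only 4 genes (SLA-3, SLA-5, B2M and PSMB9), and probes of a gene share their RNA. By the brightest probe of each, Cy5 lay above Cy3 on all arrays for 3 of 4 genes, and all 4 had an OXA coefficient below 0. Conversely, 0 of the 8 genes and 1 of 21 probes had OXA below control on all arrays, where 4.26% of all probes did. None of the 8 genes had OXA above control on all arrays (7.64% of all probes). The median of the 8 genes was 0.22 on arrays 1 and 3, against -0.59 and -0.41 on arrays 2 and 4. All 8 genes were below 0 on both arrays with OXA in Cy3 (26.2% of all probes), and 5 of 8 were above 0 on both arrays with OXA in Cy5 (38.4% of all probes). TAP2 met both, and had Cy5 above Cy3 on all arrays, with only 0.04 on array 3 and -0.0072 on array 4. Its other probe was at 0.01 on array 4.

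**Figure D3:**
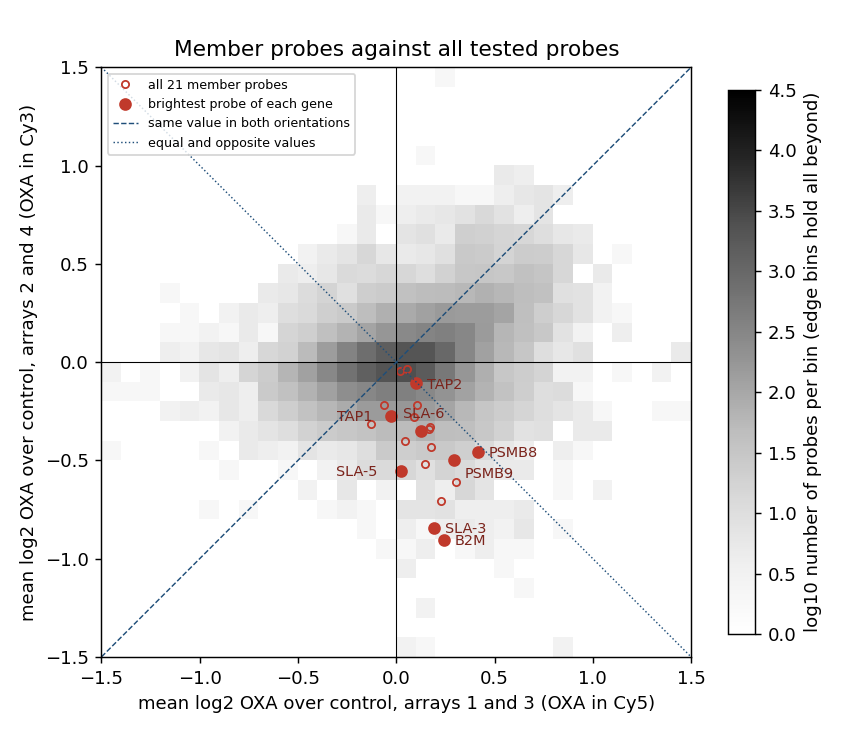
Mean log2 OXA over control on the arrays with OXA in Cy5 (x axis) and with OXA in Cy3 (y axis). Red points are member probes, filled for the brightest probe of each gene, and grey squares count all probes tested on a log10 scale. A gene that shifted alike in both orientations would lie on the dashed line; the member genes lie below 0 on the y axis, with B2M at 0.24 and -0.90, and PSMB8 at 0.42 and -0.46 close to the dotted line of equal and opposite values.

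Among the 21 member probes the brighter ones had the lower OXA coefficients and the higher dye coefficients. Across these probes brightness correlated at -0.72 with the OXA coefficient and at 0.60 with the dye coefficient, as a description, since probes of a gene share their RNA and all share the 4 arrays. Over all probes tested the correlations were 0.10 and 0.07. Among the exceptions are 2 SLA-3 probes, which at a brightness of 15.6 had dye coefficients of 0.09 and 0.08, below those of the dimmer PSMB8 probes (0.25 to 0.44).

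**Figure D4:**
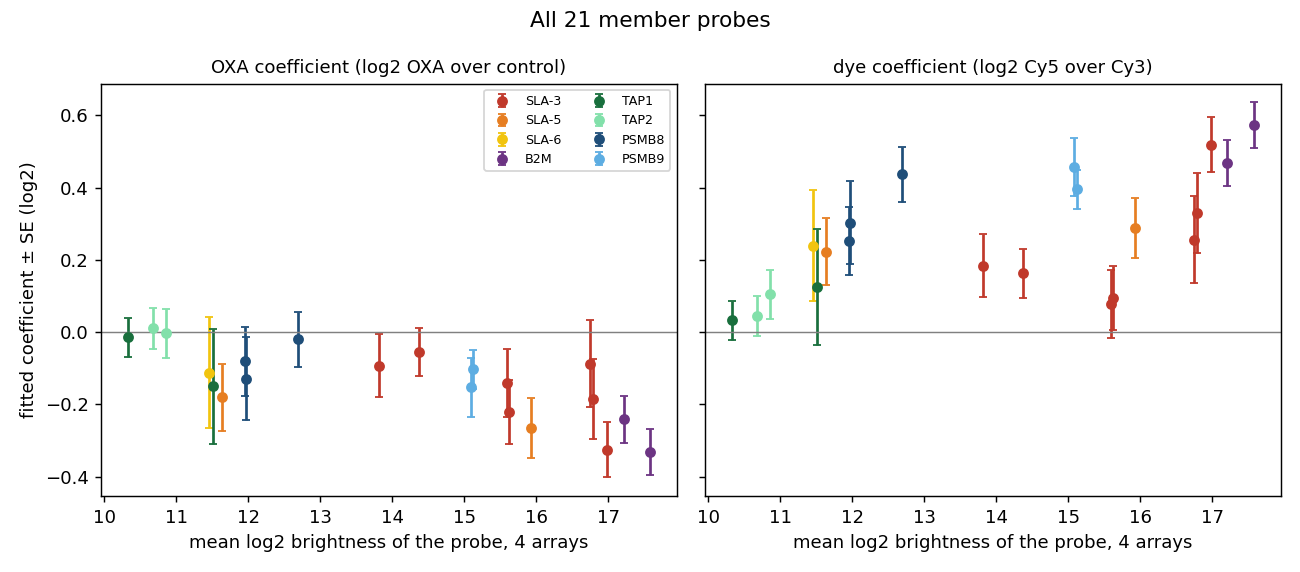
Fitted OXA coefficient (left) and dye coefficient (right), each with its SE on a log2 scale, against the mean log2 brightness of each of the 21 member probes, coloured by gene. The 2 B2M probes, at brightnesses of 17.6 and 17.2, have OXA coefficients of -0.33 and -0.24 and dye coefficients of 0.57 and 0.47, while the TAP2 probes have OXA coefficients of -0.0028 and 0.01.

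Read by the labelling protocol, with OXA in Cy5 on every array, the sign of all 8 genes turned. B2M was then 0.57 (SE 0.16), SLA-3 0.52 (SE 0.17), PSMB8 0.44 (SE 0.06) and PSMB9 0.40 (SE 0.06), and 4 of 8 genes were higher at an unadjusted p under 0.05, where 3.36% of all probes were. None passed over all probes (limma adjusted p = 0.905 for each). These values are the dye coefficients given above, since OXA and dye coincide on every array under this reading. An OXA effect then cannot be told apart from a dye effect. The authors' value table follows the sample labels: over all probes its columns correlated at 0.89 and 0.69 with the scanned Cy5 over Cy3 on arrays 1 and 3, and at -0.97 and -0.80 on arrays 2 and 4.

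How each array was normalized moved the sign as well. With median centring of each array in place of the intensity-dependent loess curve, all 8 genes were above 0, with B2M at 0.015, SLA-3 at 0.021 and PSMB8 at 0.32. The median of all probes was then 0.14, with B2M, SLA-3 and SLA-5 (0.074) below it. TAP1, PSMB9, SLA-6, TAP2 and PSMB8 were above it, and so was the median of the 8 genes, at 0.22. Single arrays moved far under that setting, with B2M at 1.73, -2.37, 3.19 and -2.49 on arrays 1 to 4.

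**Figure D5:**
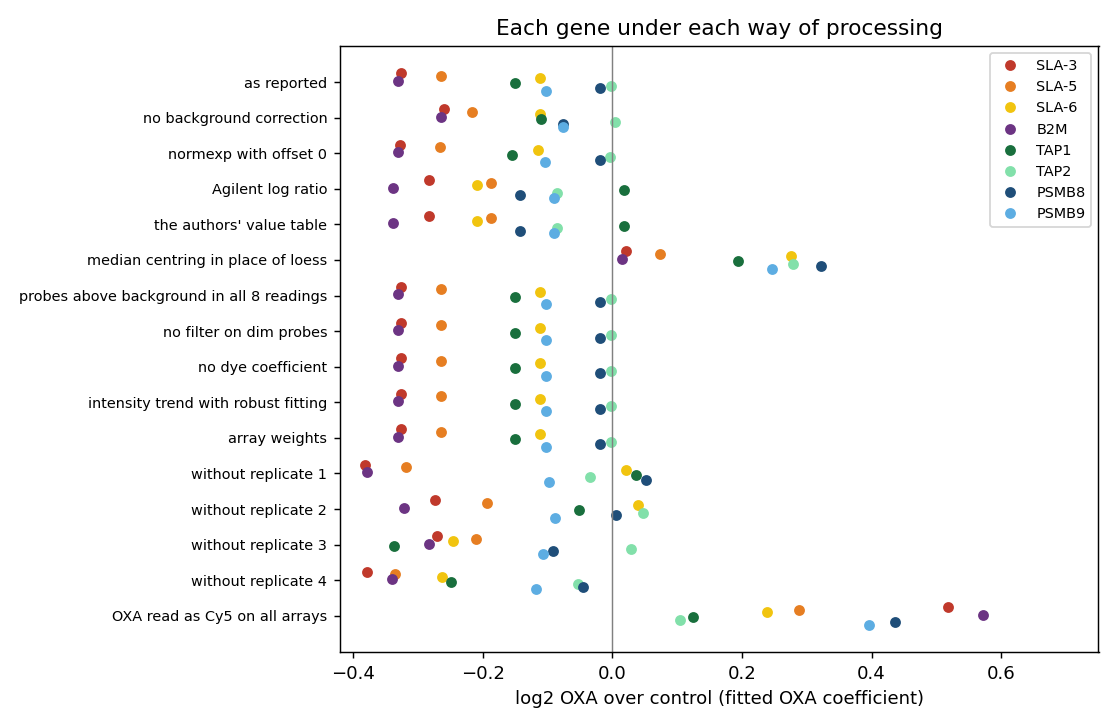
Fitted OXA coefficient (x axis, log2 OXA over control) of the brightest probe of each gene (colours) under each way of processing (rows). Median centring and the reading with OXA in Cy5 on all arrays put every gene above 0, and in the other rows shown B2M, SLA-3 and SLA-5 lie between -0.38 and -0.19.

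Other genes of the pathway did not share one direction. Of the loading complex and its chaperones 3 genes were measured. CANX, the lectin chaperone that folds new heavy chains, had ratios of -0.80, -0.14, -0.61 and 0.40 on arrays 1 to 4 and an OXA coefficient of -0.29 (SE 0.12). CALR, the lectin chaperone of the loading complex, was -0.12 (SE 0.16), and HSP90B1, a general chaperone, was 0.12 (SE 0.06). CANX and HSP90B1 had dye coefficients of -0.42 and -0.48, opposite in sign to those of the member genes. Of peptide trimming and other inducible proteasome parts 5 genes were measured, with a median of -0.035. PSMB10, the third inducible catalytic subunit, was -0.12 (SE 0.07), while the activator subunits PSME2 and PSME1, which open the proteasome, were 0.18 (SE 0.07) and 0.15 (SE 0.10). PSME2 was higher in Cy5 on all arrays, at 0.63 and 0.42 with OXA in Cy5, against -0.24 and -0.09 with OXA in Cy3. The constitutive proteasome had 7 measured genes, 4 of them above 0, with a median of 0.095. Its lowest unadjusted p were those of PSMA4, an alpha ring subunit, at 0.20 (SE 0.08), and of the beta subunits PSMB7 at 0.09 (SE 0.05) and PSMB3 at -0.12 (SE 0.08). In these 3 lists no gene had an unadjusted p under 0.05 (1.86% of all probes in either direction).

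Among regulators of class I genes 17 were measured, 11 of them below 0 (43% of all probes), with a median of -0.05. IFNGR1, the ligand-binding chain of the interferon gamma receptor, was -0.81, -0.08, -0.40 and -0.46 on arrays 1 to 4, below 0 on all of them, with an OXA coefficient of -0.44 (SE 0.11). JAK1, a kinase that the receptor uses, was -0.24 (SE 0.08) and also below 0 on all arrays, and IFNGR2, the second receptor chain, was -0.42 (SE 0.22), with -1.20 on array 1. IFNGR1 and JAK1 were the 2 of 17 at an unadjusted p under 0.05, both lower (0.847% of all probes), and none of the 17 passed in limma over all probes (adjusted p = 0.763 for both). Unlike the member genes, they had dye coefficients below 0, at -0.17 and -0.06. NLRC5, the transactivator of class I genes, was -0.03 (SE 0.06). Its probe was dim, at a log2 brightness of 10.03 and above background in 7 of 8 readings, so this value does not show a lack of change. IFNG itself was above background in 4 of 8 readings.

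Of 4 other measured class I and class I-like genes, SLA-8, a class I heavy chain gene, split by dye like the members, at 0.57 and 0.21 with OXA in Cy5, against -0.46 and -0.51 with OXA in Cy3 (OXA coefficient -0.05, SE 0.08). It was singled out after its values were seen. The list's median was 0.05, with SLA-7, another class Ib gene, at 0.06 (SE 0.07) and FCGRT, the neonatal Fc receptor that also binds beta-2-microglobulin, at 0.10 (SE 0.12). The SLA-7 probe was dim, at a log2 brightness of 10.0 and above background in 7 of 8 readings. In the class II SLA genes, which present peptides from outside the cell, 8 of 9 were below 0, with medians of -0.31 on the OXA coefficient and 0.43 on the dye coefficient, and 4 were lower at an unadjusted p under 0.05. Over all probes 43% were below 0 and 0.847% were lower at that level. The lowest p were those of the DQ chains SLA-DQB1 at -0.31 (SE 0.07) and SLA-DQA1 at -0.38 (SE 0.11) and of SLA-DRA, the DR alpha chain, at -0.46 (SE 0.14), and none passed over all probes (limma adjusted p = 0.763 for each). Array medians of that list were 0.11 and 0.29 with OXA in Cy5 (arrays 1 and 3), against -0.66 and -0.88 with OXA in Cy3 (arrays 2 and 4). Interferon-stimulated genes had no common shift on the OXA coefficient, with 11 of 21 below 0 (43% of all probes) and a median of -0.0043. Their median dye coefficient was 0.06, and 3 of 21 were higher in Cy5 on all arrays (10.3% of all probes). ISG15, a ubiquitin-like protein, was -0.52 (SE 0.24), OASL -0.40 (SE 0.16) and USP18 -0.16 (SE 0.08).

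Immune cells carry class I molecules at their surface, and their markers were counted by how many were higher in Cy5 on all arrays, where 10.3% of all probes were. The 10 measured markers of macrophages and other myeloid cells had array medians of 0.36 and 0.27 with OXA in Cy5, against -0.53 and -0.69 with OXA in Cy3, 6 of 10 were higher in Cy5 on all arrays, and their summed level ran from 20529 to 40989 in OXA RNA and from 16261 to 50980 in control RNA. In the T and NK lymphocyte list 7 of 11 were higher in Cy5 on all arrays, with array medians of 0.09 and 0.18, against -0.28 and -0.08, and summed levels of 13955 to 24004 in OXA RNA and 13969 to 25277 in control RNA. These 7 were dim, with a log2 brightness from 9.96 (CD3D) to 11.72 (GZMB). CD3D was counted with Cy5 over Cy3 between 0.015 and 0.081, and was above background in 4 of 8 readings. Likewise, the myeloid marker MRC1, at a brightness of 10.06, was counted with 0.0018 and 0.0020 on arrays 2 and 3. The T cell marker CD4 and the NK marker NCR1 were not kept for lack of signal above background. The 2 measured markers of all leukocytes, ITGB2 and CD48, had a median of -0.26, and of the B cell markers CD79A alone was measured, at -0.12 (SE 0.09). None of these 3 was higher in Cy5 on all arrays, and CD79A had a dye coefficient of -0.09. The part of these cells in the values of the member genes was not tested.

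Markers of the other cell types differed among themselves. The 6 epithelial markers had array medians of -0.84, -0.34, -0.0033 and 0.53 on arrays 1 to 4 and a dye median of -0.27. The 3 stromal fibroblast markers had a median of 1.44 on array 1 and medians between 0.02 and 0.26 on the others, with DCN running from -0.52 on array 3 to 1.46 on array 1. The part of these cells in the member genes' values was not tested. Endothelial markers (4 of 4 below 0, median -0.20) and smooth muscle markers (5 of 5 below 0, median -0.15) also lay below 0 on the OXA coefficient. Their array medians were 0.36, -0.57, -0.21 and -0.45 for endothelium and 0.01, -0.73, 0.18 and -0.11 for smooth muscle. The 4 measured conceptus markers had a median of -0.04, with CDX2 and CYP19A3 not kept for lack of signal.

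By the smallest root mean square difference over the 4 arrays from the median of the 8 genes, the 5 most similar of 2399 other named genes were IL16 (0.08), ACSL1 (0.0986), GPSM3 (0.0992), ICAM3 (0.102) and CTSD (0.108). IL16, a cytokine that attracts CD4+ cells, was 0.10 and 0.32 with OXA in Cy5, against -0.62 and -0.45 with OXA in Cy3. ICAM3, a leukocyte adhesion molecule, was 0.25 and 0.33, against -0.66 and -0.25. GPSM3 modulates G protein signalling, ACSL1 activates fatty acids and CTSD is a lysosomal protease. This likeness rests on 4 values per gene.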

How the data were processed

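The members and gene lists were chosen with earlier results of these data known, and the split of the members by dye was known before the fit. Per the file headers, the deposited scanner files were made with Agilent Feature Extraction 10.7.3.1 and hold median spot and background intensity in each dye. A further deposited column gives Agilent's log10 ratio, red over green, from intensity values that the same software had corrected for background and dye. The authors' value table was found to hold log2 ratios by setting it against the scanner ratios over 43420 probes. Its column medians were -0.17, 0.06, -0.06 and 0.09, and how the authors processed it over the whole array is unknown. For the 8 member genes its OXA coefficients equalled those of Agilent's log ratio to within rounding. For these genes the runs with either are therefore not separate checks.

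Median intensities were corrected with normexp (offset 50) and normalized by loess within each array in limma 3.58.1 under R 4.3.3. Control and outlier-marked spots were left out and replicate spots averaged. A probe was tested if well above background in at least 4 of 8 readings, which all 21 member probes were (20 of them in all 8). Cy5 over Cy3 was fitted with an OXA coefficient and a dye coefficient over all 26927 probes, with 2 residual degrees of freedom (3.88 after moderation), by eBayes with Benjamini-Hochberg adjustment. Levels per RNA are log2 intensities after loess and Aquantile. Levels of different probes were not set against each other, apart from the summed levels of marker lists. These add the unlogged levels of the listed genes on each array, so the brightest probes weigh most. A gene is represented by its kept probe of highest mean brightness.

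Names came from RefSeq accessions looked up in a RefSeq table for Sscrofa11.1, which held those of 6700 out of 7125 probes. The file headers name no build, so no coordinates are given. Members were named with all probes, of each of 7 pathway lists up to 3 genes of lowest unadjusted p, the measured loading complex genes, and 5 genes by likeness. SLA-8, NLRC5, IFNG and the single cell markers named fall outside this rule and were singled out after their values were seen. There were 9 marker lists. Lists got no test. The scripts were tested on simulated data. The number of arrays limits the precision.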

Additional observations from a re-analysis of the deposited data

Results flagged for a closer look

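For 5 of the 8 genes both arrays with OXA in Cy5 lay above 0 and both arrays with OXA in Cy3 below 0. TAP2 was 1 of them with only 0.04 on array 3 and -0.0072 on array 4. The other TAP2 probe was at 0.01 on array 4 and did not split. A dimmer PSMB8 probe, at -0.05 on array 1, did not split either, and of the SLA-3 probes only 2 of 7 did. The mean log2 OXA over control with OXA in Cy5 minus that with OXA in Cy3 was 1.14 for B2M, 1.04 for SLA-3, 0.87 for PSMB8, 0.79 for PSMB9 and 0.21 for TAP2. The dye coefficient, which tests this difference, did not pass in limma for any of them (adjusted p = 0.932 for each). No member probe of 21 had a single array far from the other 3 by Dixon's 95% criterion.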

How the results depend on the processing

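No member gene passed an adjusted p of 0.05 under any alternative run. With median centring in place of loess all 8 genes turned above 0: B2M 0.015, SLA-3 0.021, SLA-5 0.074, TAP1 0.19, PSMB9 0.25, SLA-6 0.28, TAP2 0.28 and PSMB8 0.32, and their median dye coefficient was 1.71. Taking OXA as the Cy5 RNA of every array gave TAP2 0.11, TAP1 0.12, SLA-6 0.24, SLA-5 0.29, PSMB9 0.40, PSMB8 0.44, SLA-3 0.52 and B2M 0.57, with a median of 0.34. These are the dye coefficients of the main fit, as OXA and dye cannot be told apart under that reading. TAP1 turned to 0.019 in Agilent's log ratio and in the authors' value table, and TAP2 to 0.0036 with no background correction and 0.0037 by the median of its probes, which put SLA-3 at -0.14. Leaving out 1 array at a time, PSMB8 ran from -0.091 (without array 3) to 0.051 (without array 1), SLA-6 from -0.26 (without array 4) to 0.039 (without array 2), TAP1 from -0.34 (without array 3) to 0.036 (without array 1) and TAP2 from -0.053 (without array 4) to 0.048 (without array 2), so that their sign rests on single arrays. Over the same fits B2M ran from -0.38 to -0.28, SLA-3 from -0.38 to -0.27, SLA-5 from -0.34 to -0.19 and PSMB9 from -0.12 to -0.09. A slide term, which equals leaving out array 1, gave PSMB8 0.051, SLA-6 0.022 and TAP1 0.036. The median OXA coefficient of the 8 genes ran from -0.26 to -0.07 with 1 array left out, and their median dye coefficient from 0.30 to 0.40.

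Probes of the whole array at an unadjusted p under 0.05 on the OXA coefficient numbered 500, against 1333 with no background correction, 1829 with Agilent's log ratio, 1824 with the authors' value table, 4527 with median centring, 1047 taking OXA as Cy5 throughout, 265 with an intensity trend and robust fitting, and 293 with array weights. With 1 array left out they ran from 292 without array 2 to 8029 without array 3. At an adjusted p of 0.05 none passed on either coefficient, against 0 to 6 on the OXA coefficient and 0 to 7 on the dye coefficient with 1 array left out, the highest without array 4, and 8221 on the dye coefficient with median centring. The causes were not tested. The ratio within an array already pairs an OXA RNA with a control RNA, so no further block was fitted.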
